A study of Homo sapiens with 6 samples.

Results

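Small nucleolar RNAs and small Cajal body RNAs were followed through 6 libraries of Cal27, a human cell line of oral squamous carcinoma. A gene was taken as a member when its Ensembl identifier carries a symbol that starts with SNORA, SNORD or SCARNA in GENCODE release 44 (GRCh38) and its counts summed over the 6 libraries reached 20. This gave 124 members among 57820 rows, of which 58 are box C/D RNAs (SNORD), 53 are H/ACA RNAs (SNORA) and 13 are small Cajal body RNAs (SCARNA, here scaRNAs). CRNN cells carried a lentivirus with cornulin, a protein of the differentiating squamous epithelium, and GFP cells carried a lentivirus with a GFP vector. For both, polybrene was at 8 µg/ml during transduction and harvest came after 48 h. Untreated wild-type Cal27 cells had no virus, and for them the labels give neither polybrene nor a harvest time, so these cannot be told apart from the virus in a comparison with them. Each group had 2 biological replicates, all 6 libraries were labelled with the same batch, all came from a single line, and nothing states whether transduced cells were selected or grown from clones.

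These RNAs guide chemical marks onto other RNAs by base pairing. Box C/D RNAs direct 2′-O-methylation through the methyltransferase fibrillarin, H/ACA RNAs direct pseudouridylation through dyskerin, and scaRNAs, which may hold either kind of box or both, act in Cajal bodies on the small nuclear RNAs of the spliceosome. Most are cut out of introns of host genes, so the host transcript and the small RNA come from the same precursor, while U3, an abundant box C/D RNA that is needed to cleave the precursor of 18S ribosomal RNA and does not methylate it, has its own promoter. Dividing cells, tumour cells among them, rely on this machinery to make ribosomes.

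Sequences are shown for abundant members of each class because most of the counts fall on these RNAs, as do several of the widest differences between replicates. Each sequence is the annotated transcript, from GENCODE 44 on GRCh38, 5′ to 3′. Capitals in box C/D members mark TGATGA (box C) and CTGA (box D), and in H/ACA members the ACA near the 3′ end, and in SCARNA21 likewise the ACA.
SNORD3A: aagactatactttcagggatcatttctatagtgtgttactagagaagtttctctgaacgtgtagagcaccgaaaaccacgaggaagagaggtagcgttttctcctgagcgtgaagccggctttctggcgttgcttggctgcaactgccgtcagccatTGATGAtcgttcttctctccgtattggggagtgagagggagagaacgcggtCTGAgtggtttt
SNORD17: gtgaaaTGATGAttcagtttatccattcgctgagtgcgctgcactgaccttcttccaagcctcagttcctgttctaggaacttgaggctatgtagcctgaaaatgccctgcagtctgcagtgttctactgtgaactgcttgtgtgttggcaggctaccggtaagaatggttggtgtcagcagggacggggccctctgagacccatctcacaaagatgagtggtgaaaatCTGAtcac
SNORD3A (U3) lies on chr17:19188016-19188714, plus strand, inside no other gene, and only bases 1 to 220 of its annotated 699 nt are printed. SNORD17 (chr20:17962710-17962946, minus strand) lies in SNX5, and SNORD15B, a guide for 28S ribosomal RNA, lies in the ribosomal protein gene RPS3.
SNORA73B: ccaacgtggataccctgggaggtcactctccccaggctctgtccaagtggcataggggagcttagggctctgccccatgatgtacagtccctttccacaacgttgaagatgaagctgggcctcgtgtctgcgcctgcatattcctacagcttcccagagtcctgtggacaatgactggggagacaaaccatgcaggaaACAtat
SNORA79B: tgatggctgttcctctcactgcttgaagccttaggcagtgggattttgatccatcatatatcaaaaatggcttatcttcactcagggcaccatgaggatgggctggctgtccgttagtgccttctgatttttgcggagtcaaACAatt
SNORA12: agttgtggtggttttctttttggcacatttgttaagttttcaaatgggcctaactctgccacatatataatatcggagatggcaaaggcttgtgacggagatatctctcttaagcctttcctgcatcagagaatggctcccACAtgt
SNORA73B (U17b; chr1:28508559-28508762, plus strand), which like U3 takes part in the cleavage of the 18S precursor, lies in the noncoding host SNHG3. SNORA79B (chr14:20323179-20323326, minus strand) lies in CCNB1IP1, and SNORA12 (chr10:100237156-100237302, minus strand) in CWF19L1.
SCARNA21: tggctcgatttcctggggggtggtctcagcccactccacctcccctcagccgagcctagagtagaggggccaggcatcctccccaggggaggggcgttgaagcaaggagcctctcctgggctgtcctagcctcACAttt
SCARNA7 (U90) lies in KPNA4. SCARNA10 (U85), which guides marks onto U5, lies in NCAPD2 and shares exon sequence with the annotated gene ENSG00000276232, and SCARNA21 (chr17:7906122-7906260, plus strand) lies in CHD3.

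Across all members the letters followed the classes. TGATGA stood within the first 20 nt in 39 of 58 box C/D members (67.2%), in 0 of 53 H/ACA members and in 4 of 13 scaRNAs. CTGA stood within the last 20 nt in 53 box C/D members, in 9 H/ACA members and in 5 scaRNAs, and both runs together were in 38 box C/D members and 0 H/ACA members. ACA stood within the last 8 nt, with at least 2 nt after it, in 46 of 53 H/ACA members (86.8%), in 7 box C/D members and in 7 scaRNAs. Only the transcript strand was searched, the windows for CTGA and ACA overlap, and a box C that departs from TGATGA or lies farther inside, as in SNORD3A, was not counted. Median annotated lengths were 86 nt for box C/D members, 135 nt for H/ACA members and 166 nt for scaRNAs.

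Most members lay inside another gene. Of 124, 115 were within a host on the same strand, spread over 86 hosts. The host was protein coding for 38 box C/D members, 36 H/ACA members and 11 scaRNAs, and a long noncoding RNA for 15, 11 and 2. An exon of another gene, small RNA genes included, overlapped 36 members. An annotated copy at least 95% identical existed for 10 members, among them SNORD62A and SNORD62B (100%), SNORD116-18 (98.9%) and SNORA7B (98.6%). Counts of such copies are uncertain, as is the division of reads between a member and an overlapping exon. For the 115 members within a host, the counts also do not separate the small RNA from host precursor that still holds it. This matters most for members with few counts. Identity was taken over full annotated lengths, so stretches shared by longer copies were not counted. SNORD3A reached 91.6% with SNORD3B-1 and SNORD3C 83.0% with SNORD3A, and how reads were divided among these copies is not given. Whether the counting used strand is not given in the sources used here.

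The rule left out most of the annotated family. Of 493 rows with such a symbol, 265 had 0 counts in every library and 104 had 1 to 19. Just outside the limit stood SNORD53 with 19 counts and, among others, SNORA30, SNORA58, SCARNA11 and SCARNA20 with 17 each, and just inside it stood a SNORA70 copy (ENSG00000200237) with 20, SNORA59A and SNORD89 with 21 each and SCARNA18 with 22. The share of rows at 0 was 62.5% of 280 box C/D rows, 46.1% of 193 H/ACA rows and 1 of 20 scaRNA rows, SCARNA12. Rows under 75 nt were at 0 in 75.6% of cases and rows of 150 nt or more in 31.8%, and rows overlapping an exon of a gene other than a snoRNA or scaRNA gene (34 members among them) were at 0 in 69% of 174, against 45.5% of 319 others. Several RNAs with known roles were at 0, among them SNORD118 (U8), which takes part in 28S and 5.8S maturation, SNORD13 (U13), which acts with the 18S acetyltransferase, and SNORD32A, SNORD33, SNORD34 and SNORD35A of the RPL13A introns. In the imprinted chromosome 15 region linked to Prader-Willi syndrome, all 45 SNORD115 rows were at 0, while 19 of 25 SNORD116 rows had counts and 4 passed the rule. A row at 0 says only that no read was assigned to it, and length and overlap moved with these shares; their part was not tested.

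Library totals lay between 11817105 (GFP replicate 2) and 28041227 counts (untreated replicate 1), and 3 counts corresponded to between 0.115 and 0.239 CPM, where CPM is the count of a gene scaled to the size of its library. CRNN itself had 964 and 1028 CPM in the CRNN libraries, 3.06 and 2.55 in the GFP pair, and 3.51 and 2.08 in untreated cells. Keratinocyte markers were present in every library (KRT5 between 1902 and 4270 CPM), and markers of immune, endothelial and fibroblast cells were between 0 and 4.26 CPM. The 9 epithelial and squamous markers listed did not move together between groups. Their log2 fold changes ran from -2.40 to 0.79 for CRNN over untreated cells (5 positive, 4 negative). For GFP over untreated cells they ran from -2.97 to 1.13 (4 positive, 5 negative), and none passed at an adjusted p under 0.05 (edgeR). The GFP libraries differed in composition. Spearman's rho between a gene's GC content and its level relative to the remaining libraries, over 11474 genes, was 0.63 in GFP replicate 1 and -0.38 in GFP replicate 2, and lay between -0.27 and 0.14 in the other 4. Gene length gave another order of libraries over the same genes. GFP replicate 2 stood highest there at 0.40, and CRNN replicate 2 lowest at -0.27 (Spearman's rho). The remaining libraries lay between -0.11 and -0.0035. Longer genes thus tended to stand higher in GFP replicate 2 and lower in CRNN replicate 2. These values are descriptions across genes.

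Most of the box C/D signal was U3. SNORD3A had 3138 and 535 CPM in the CRNN libraries, 870 and 556 in the GFP pair, and 446 and 1902 in untreated cells, on 6963 to 69229 counts. CRNN replicate 1 and untreated replicate 2 stood above the other 4 libraries, so that each of these groups held both a high and a low library and the groups overlapped. The rest of the box C/D class summed to 165 and 71.9 CPM in CRNN cells, 108 and 116 in GFP cells and 74.2 and 119 in untreated cells. H/ACA members summed to 380 and 254 CPM in CRNN, 277 and 205 in the GFP pair, and 211 and 238 in untreated cells. For scaRNAs the sums were 514 and 279 CPM in CRNN, 365 and 325 in the GFP pair, and 234 and 358 in untreated cells. Means of the 2 libraries of a group were 1955 CPM in CRNN, 825 in GFP and 1270 in untreated cells for box C/D members with SNORD3A, 317, 241 and 224 CPM, in the same order, for H/ACA members and 397, 345 and 296 CPM for scaRNAs. The H/ACA sum was higher in both CRNN libraries than in both untreated libraries, and every other pair of groups overlapped in every class shown. Much of that H/ACA sum was SNORA73B, with 210 and 145 CPM in CRNN and 96.6 and 128 in untreated cells. H/ACA members were not summed without it, so the difference cannot be read as one of the whole class. Of all genes tested, 18.7% were higher in CRNN than in untreated cells without overlap.

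**Figure D1:**
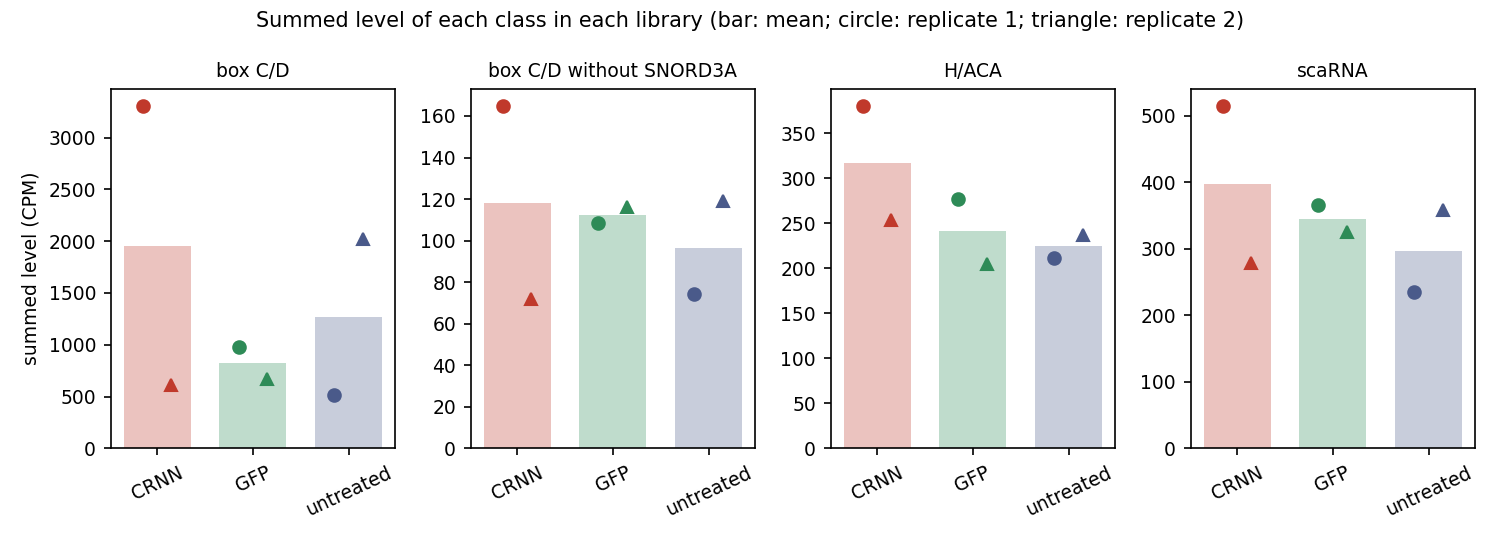
Summed level in CPM of box C/D members, box C/D members without SNORD3A, H/ACA members and scaRNAs in CRNN, GFP and untreated cells. Bars are means of 2 libraries from 0, circles are replicate 1 and triangles replicate 2. The replicates of box C/D lie farthest apart, at 3303 and 607 CPM in CRNN cells and at 520 and 2021 CPM in untreated cells.

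All members together took 0.403% and 0.118% of the counts in the CRNN libraries, 0.159% and 0.127% in the GFP pair, and 0.0901% and 0.269% in untreated cells. In bulk RNA a lower level per cell and fewer cells that hold the RNA cannot be told apart. Members varied widely in level: 13 had 1000 counts or more and 65 had under 100, and per length the mean level over the 6 libraries lay between 0.928 and 1776 CPM per kb. SNORD3A stood first per length, SNORA73B followed at 694 CPM per kb, then SCARNA7 at 437, SCARNA10 at 298, SNORA79B at 261 and SCARNA21 at 229. These are levels per annotated length, which for SNORD3A is 699 nt.

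Abundant members differed in the spread between replicates. SCARNA7, which directs a mark onto U1, had 173 and 155 CPM in CRNN, 203 and 88.4 in the GFP pair, and 133 and 113 in untreated cells. SCARNA9, a guide for U2 in an intron of CEP295 (chr11:93721513-93721865, plus strand), had 25.8 and 25.8 CPM in CRNN, 31.1 and 22.4 in the GFP pair, and 24.9 and 19.1 in untreated cells, the narrowest range of the 9 scaRNAs with 100 or more counts. For both, the CRNN libraries lay above the untreated ones, and the GFP libraries reached above and below the CRNN ones.

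SCARNA10, as long as SCARNA7, behaved otherwise. Its levels were 202 and 31.6 CPM in CRNN cells, 49.0 and 144 in GFP cells and 23.3 and 140 in untreated cells. The high libraries were CRNN replicate 1, GFP replicate 2 and untreated replicate 2, that is 1 of each group. SNORD17 was high in the same libraries, with 62.9 and 9.94 CPM in CRNN, 18.6 and 65.7 in the GFP pair, and 8.79 and 43.3 in untreated cells. SCARNA5 (U87; chr2:233275727-233276002, plus strand), with 35.4 and 11.1 CPM in CRNN, 16.2 and 29.1 in the GFP pair, and 7.03 and 30.3 in untreated cells, was so too. SNORD3C, a U3 copy beside SNORD3A (chr17:19189665-19190245, minus strand), had 19.5 and 4.81 CPM in CRNN, 4.21 and 7.18 in the GFP pair, and 2.18 and 11.3 in untreated cells. SNORD3A differed from this order in GFP replicate 2, where it was low.

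**Figure D2:**
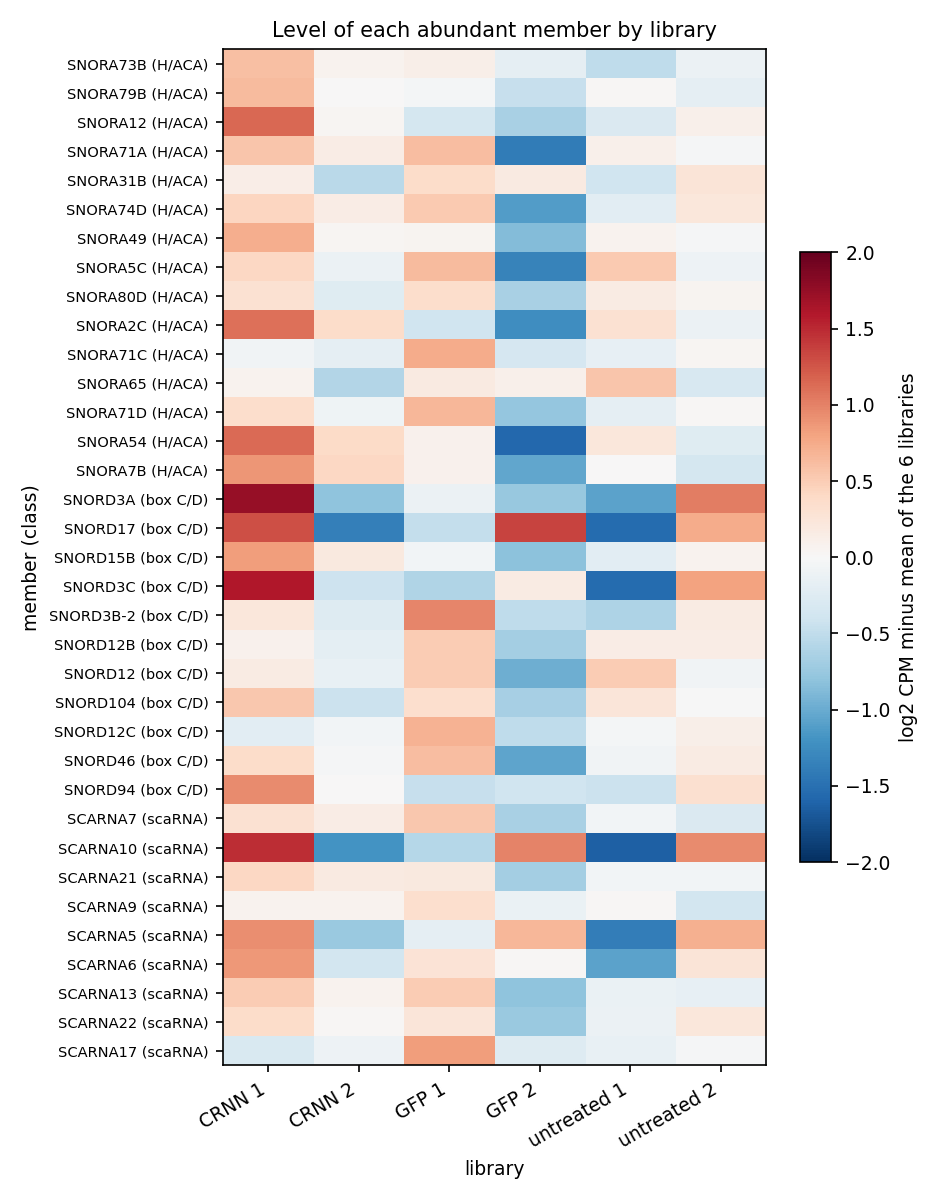
Level of each of the 35 members with 250 or more counts in each of the 6 libraries, as log2 CPM minus the member's mean, from blue (low) to red (high), with members grouped by class. SCARNA10, SCARNA5 and SNORD17 are red in CRNN replicate 1, GFP replicate 2 and untreated replicate 2, and many other rows are red in CRNN replicate 1 or GFP replicate 1 and blue in GFP replicate 2.

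Differences of this size between the CRNN replicates were rare among other genes. Among 11665 genes whose log2 CPM averaged 1 or more, 7 (0.0600%) differed over 4-fold between the CRNN replicates, and 4 of those 7 were members, out of 31 members at that level. SCARNA10 was 6.38-fold higher in replicate 1, SNORD17 6.33-fold, SNORD3A 5.86-fold and SNORD3C 4.06-fold. Between the untreated replicates 337 genes (2.89%) differed over 4-fold and 5 of 31 members did: SCARNA10, SCARNA5, SNORD17, SNORD3A and SNORD3C, which in replicate 1 stood at between 0.167 and 0.234 times their level in replicate 2. Between the GFP replicates the count was 68 genes (0.583%) and 1 member, SNORA71A, which was 4.11-fold higher in replicate 1. Over all 6 libraries, 12 of 59 members with 100 or more counts had a highest library over 4-fold the lowest, where the share among 13866 genes with as many counts was 9.22%. These counts compare libraries and carry no test; the members were chosen with earlier results of these data known.

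Ratios between members inside a library do not depend on how libraries are scaled, and the pairs were chosen after their values were seen. SCARNA10 over SCARNA7, 330 nt each, was 1.17 and 0.205 in CRNN, 0.241 and 1.63 in the GFP pair, and 0.175 and 1.23 in untreated cells. The exact 95% intervals, which cover counting error only, ran from 1.12 to 1.22 and from 0.188 to 0.222 in the CRNN libraries, so the replicates differed by more than counting error. SCARNA9 over SCARNA7 had a narrower range, with 0.149 and 0.167 in CRNN, 0.153 and 0.254 in the GFP pair, and 0.187 and 0.169 in untreated cells. Here too the GFP replicates differed by more than counting error, with intervals of 0.140 to 0.167 and 0.222 to 0.289. SCARNA5 and SCARNA6 (U88) both lie in ATG16L1, and their ratio was 1.53 and 1.13 in CRNN, 1.06 and 2.25 in the GFP pair, and 1.16 and 1.99 in untreated cells. So 2 RNAs of a single host did not keep their ratio: in GFP replicate 2 its interval was 1.87 to 2.73 and in GFP replicate 1 it was 0.899 to 1.24. Such ratios can still carry a library's trend with GC content or length, and the GFP libraries differed in both. GC content is 47.5% for SCARNA5 and 53.2% for SCARNA6, and 45.5% for SCARNA10 and 37.3% for SCARNA7. The part of these trends in the ratios was not tested. SNORD17 over SNORD15B was 2.75 and 0.682 in CRNN, 1.52 and 9.14 in the GFP pair, and 0.799 and 3.21 in untreated cells. SNORD3A over SNORA73B was 14.95 and 3.69 in CRNN, 5.83 and 4.57 in the GFP pair, and 4.62 and 14.91 in untreated cells.

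**Figure D3:**
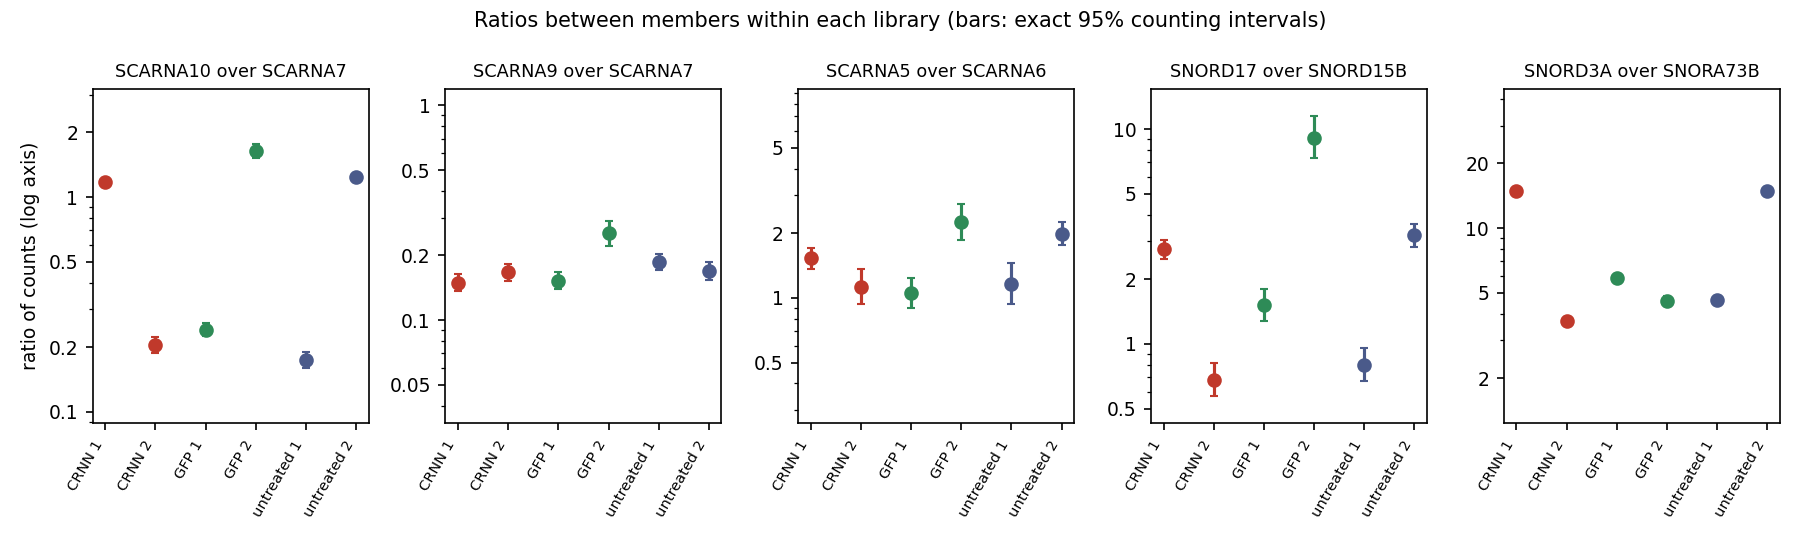
Ratio of counts between 5 pairs of members within each library, on log axes, for CRNN, GFP and untreated cells, replicates 1 and 2 of each. Bars are exact 95% intervals for counting error. SCARNA10 over SCARNA7 lies at 1.17, 1.63 and 1.23 in 3 libraries and between 0.175 and 0.241 in the other 3, while SCARNA9 over SCARNA7 lies between 0.149 and 0.254.

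The median level of the members differed between libraries. For the 87 members that passed the filter on low counts, it came, against the mean of the other 5 libraries in log2 CPM, to 0.43 for CRNN replicate 1 and -0.24 for replicate 2, 0.37 for GFP replicate 1 and -0.41 for replicate 2, and -0.06 and 0.02 in untreated cells. Over all tested genes this median lay between 0.00 and 0.03 in the 6 libraries. Among 59 members with 100 or more counts, GFP replicate 1 held the highest level of 28 and CRNN replicate 1 of 21, and GFP replicate 2 held the lowest of 35. Between replicates the median SD of the 87 members was 0.41 on the log2 CPM scale in CRNN, 0.62 in GFP and 0.28 in untreated cells. For the 11665 genes whose log2 CPM averaged 1 or more it was 0.11, 0.30 and 0.26 in that order. Only 31 members reach that level, so these sets differ in depth. For the 13 members with 1000 or more counts the median SD was 0.79, 0.54 and 0.28. GFP replicates 1 and 2 are also the libraries with the strongest trends with GC content, and GFP replicate 2 has the strongest with length. With GC and length trends removed the median log2 fold change of the members for CRNN over GFP was -0.20, against 0.05 without that step.

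Single libraries stood apart for single members. SNORA12 was highest in CRNN replicate 1, with 22.4 CPM against 10.3 in CRNN replicate 2, 7.89 and 6.39 in the GFP pair, and 8.25 and 10.8 in untreated cells. SCARNA17 (U91), in the noncoding host SNHG22, had 1.54 and 1.78 CPM in CRNN, 3.48 and 1.60 in the GFP pair, and 1.72 and 1.88 in untreated cells, so GFP replicate 1 stood alone. SNORA80A, in an intron of URB1, had 24 and 10 counts in CRNN, 20 and 0 in the GFP pair, and 34 and 20 in untreated cells, and at 0 counts GFP replicate 2 allows a level of up to 0.239 CPM.

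Whether cornulin cells differed from GFP vector cells in these RNAs was tested with edgeR's quasi-likelihood test on all 16396 genes that passed the filter, in which 87 members took part (35 box C/D, 43 H/ACA and 9 scaRNAs) and 37 had too few counts. No member rose or fell at an adjusted p under 0.05, where 0.0183% of all genes rose and 0% fell, and the smallest adjusted p of a member was 0.999 (edgeR). At an unadjusted p under 0.05, 4 members were higher and 1 lower in CRNN, that is 4.6% and 1.15%, against 1.49% and 2.9% of all genes, and DESeq2 gave 5 members and limma-voom 5. The groups did not overlap for 12 members higher and 11 lower in CRNN, 13.8% and 12.6%, against 19.4% and 18.7% of all genes. The median log2 fold change was 0.05 for members, of which 49 were positive (49.9% of all genes were) and 38 negative, and -0.0017 for all genes, with -0.0028 for box C/D, 0.06 for H/ACA and 0.22 for scaRNAs. Without CRNN replicate 1 the median of the members was -0.43 and without GFP replicate 1 it was 0.41.

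Of the 5 members with the smallest unadjusted p, 4 were H/ACA RNAs and 1 was a box C/D RNA. SNORA2C, 1 of 3 SNORA2 copies in introns of KANSL2 and overlapping MIR1291, had 6.26 and 3.74 CPM in CRNN cells against 2.18 and 1.20 in GFP cells, with a log2 fold change of 1.54 (SE 0.45, unadjusted p = 0.00785; edgeR). SNORA12 had 22.4 and 10.3 CPM in CRNN against 7.89 and 6.39 in GFP, a log2 fold change of 1.19 (SE 0.40, unadjusted p = 0.0151; edgeR). SNORD15B had 22.8 and 14.6 CPM in CRNN against 12.3 and 7.18 in GFP, with 0.94 (SE 0.36) on the log2 scale. For these 3 RNAs both CRNN libraries lay above both GFP libraries. SNORA54, in NAP1L4, had 3.94 and 2.32 CPM in CRNN against 1.87 and 0.559 in GFP (log2 fold change 1.31, SE 0.57). A SNORA70 copy (ENSG00000202379, chr3:108574565-108574698) lies inside no host gene but overlaps an exon of the annotated gene ENSG00000276763. This copy had 0.227 and 0.178 CPM in CRNN against 0.675 and 0.958 in GFP (log2 fold change -1.96, SE 0.74). It was on 5 and 4 counts in CRNN cells against 13 and 12 in GFP cells. None of the 5 passed after adjustment, and untreated cells had 3.59 and 2.68 CPM of SNORA2C and 8.25 and 10.8 of SNORA12. SNORA2B, another copy in the KANSL2 introns, was on 6 and 2 counts in CRNN cells against 15 and 3 in GFP cells, a log2 fold change of -1.54 (SE 0.81), of opposite sign to SNORA2C. Farther down, SNORA80B in ODC1 had 1.21 (SE 0.79), SNORD39 in MIR31HG -1.26 (SE 0.90) and SNORD70 in NOP58 -0.99 (SE 0.60), each on 21 counts or fewer in every library. For SNORD3A the log2 fold change was 1.37 with an SE of 0.82, and for SCARNA10 it was 0.28 with an SE of 0.94, and both turned negative without CRNN replicate 1, at -0.38 and -1.58.

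**Figure D4:**
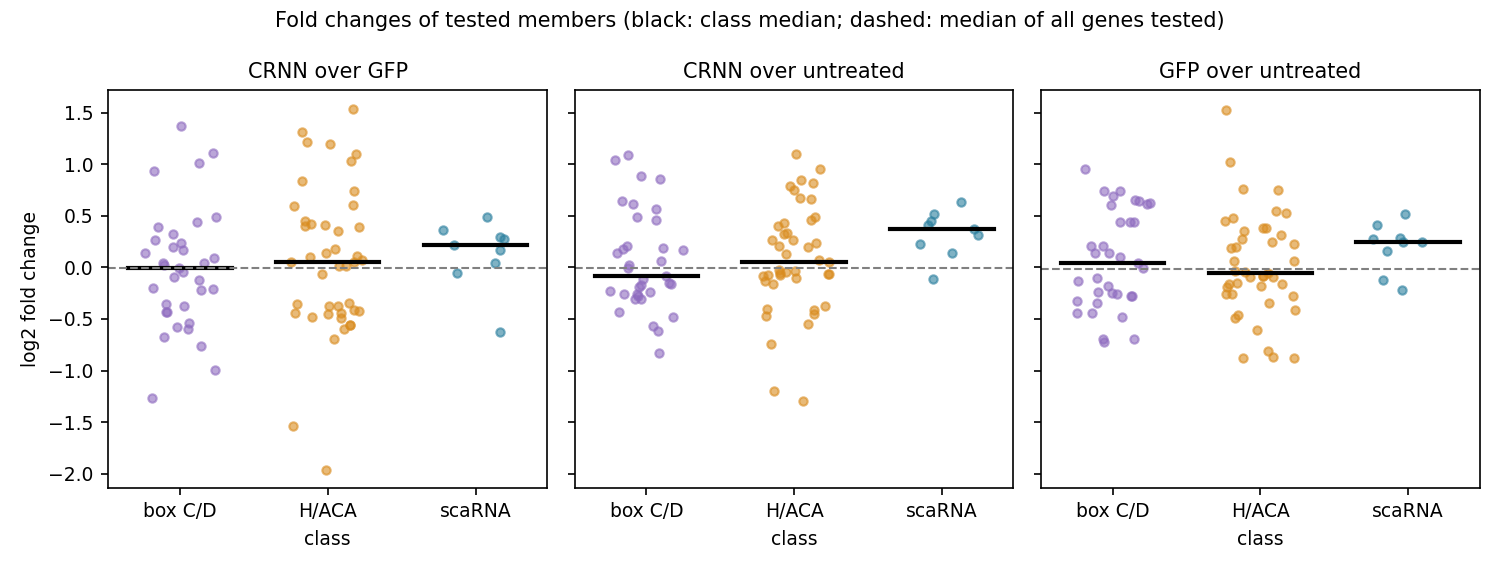
Log2 fold change of each of the 87 tested members for CRNN over GFP, CRNN over untreated and GFP over untreated cells, by class. Black lines are class medians and dashed lines the median of all 16396 genes. Points lie on both sides of 0 in every class and comparison, with 8 of 9 scaRNAs above 0 for CRNN over untreated cells. Of all genes, 49.1% were above 0 there.

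CRNN cells were next set against untreated cells, a comparison that shares the CRNN libraries with the one above and so is given beside it. Again no member passed (smallest adjusted p = 0.989, edgeR), where 0.0061% of genes rose and 0% fell; 0 members had an unadjusted p under 0.05 in either direction, against 1.52% of genes higher and 2.96% lower, and DESeq2 gave 1 member and limma-voom 0. Both CRNN libraries lay above both untreated libraries for 20 members and below them for 11, 23% and 12.6%, against 18.7% and 18.4% of all genes. The median log2 fold change was 0.06 for all members, -0.09 for box C/D, 0.05 for H/ACA and 0.37 for scaRNAs, with -0.01 for all genes. Without CRNN replicate 1 the median of the members was -0.33, and without CRNN replicate 2 it was 0.32. Of 9 scaRNAs, 8 were positive (49.1% of all genes were) and 4 did not overlap, namely SCARNA7, SCARNA9, SCARNA13 and SCARNA21. SCARNA21 had 41.5 and 35.3 CPM in CRNN cells against 29.8 and 29.7 in untreated cells, a log2 fold change of 0.37 (SE 0.32). SCARNA13 (U93), in the noncoding host SNHG10, had 8.16 and 6.02 CPM in CRNN against 5.23 and 5.12 in untreated cells, with 0.45 (SE 0.43). Against the mean of the other libraries the scaRNA median stood at 0.50 for CRNN replicate 1 and at 0.03 for replicate 2.

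SNORA73B had the smallest p of this comparison. It had 210 and 145 CPM in CRNN cells against 96.6 and 128 in untreated cells, a log2 fold change of 0.66 (SE 0.30, unadjusted p = 0.0560; edgeR), and its host SNHG3 had 588 and 351 CPM in CRNN against 311 and 376 in untreated cells. SNORD116-18, a box C/D RNA of the imprinted region with no known ribosomal target, was counted 30 and 18 times in CRNN cells against 18 and 8 times in untreated cells, a log2 fold change of 1.09 (SE 0.57). Neighbouring copies had other values: SNORD116-13 had 0.88 (SE 0.59) and SNORD116-19, which is 100% identical to another annotated copy, had 17 and 9 counts in CRNN cells against 16 and 14 in untreated cells and a log2 fold change of -0.00 (SE 0.56). SNORA7B had 0.85 (SE 0.46), SNORA47 1.10 (SE 0.63) and SNORD126 1.04 (SE 0.70) on the log2 scale, and on the lower side SNORA2B had -1.29 (SE 0.79), the SNORA70 copy ENSG00000202379 -1.20 (SE 0.74) and SNORD6, in TAF1D, -0.62 (SE 0.51).

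GFP vector cells were compared with untreated cells to see the members after transduction without cornulin, and both groups also served above. No member passed (smallest adjusted p = 0.711, edgeR), where 0% of all genes rose and 0% fell. At an unadjusted p under 0.05, 1 member was higher and 0 lower, against 4.03% and 2.9% of genes, while DESeq2 gave 0 and limma-voom 1. The groups did not overlap for 7 members higher and 9 lower in GFP, against 16.2% and 15.5% of all genes. The median log2 fold change was 0.04 for members and -0.01 for all genes, but -0.40 without GFP replicate 1 and 0.25 without GFP replicate 2. SNORA47, in ZBED3, had 10 and 8 counts in GFP against 4 and 6 in untreated cells, a log2 fold change of 1.52 (SE 0.63, unadjusted p = 0.0402; edgeR). SNORA50A, in CNOT1, had 1.02 (SE 0.55), and the box C/D RNAs SNORD62B, SNORD14E and SNORD101 had 0.74 (SE 0.55), 0.66 (SE 0.48) and -0.69 (SE 0.45). SNORA2C, higher in CRNN than in GFP cells above, was lower here at -0.87 (SE 0.45), with 2.18 and 1.20 CPM in GFP against 3.59 and 2.68 in untreated cells, and both values rest on the same GFP libraries. SNORA37 in MBD2 and SNORA26 in DANCR had -0.88 (SE 0.85) and -0.81 (SE 0.64), on 24 counts or fewer a library.

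Host transcripts could be set beside 77 tested members, in 60 hosts. Across these members, which share libraries and in part hosts, Spearman's rho between the log2 fold change of a member and that of its host was 0.045 for CRNN over GFP, with 41 of 77 of the same sign, 0.32 for CRNN over untreated cells (46 of the same sign) and 0.061 for GFP over untreated cells (42). For the 52 members with 100 or more counts it was 0.0029, 0.18 and -0.0035 in that order. These correlations describe the members and carry no test. The hosts themselves had a median of 0.03 for CRNN over GFP, -0.24 for CRNN over untreated and -0.32 for GFP over untreated cells, where the members had 0.05, 0.02 and 0.04.

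The levels of single hosts and members moved together in some libraries and apart in others. NCAPD2, a condensin subunit that holds SCARNA10, had 376 and 364 CPM in CRNN, 380 and 377 in the GFP pair, and 156 and 365 in untreated cells, so that it was level across the 4 transduced libraries, in which SCARNA10 ranged between 31.6 and 202 CPM, while both were at their lowest in untreated replicate 1. SNX5, which holds SNORD17, stayed between 89.3 and 112 CPM in all 6. ATG16L1 had 35.1 and 35.2 CPM in CRNN, 38.8 and 27.5 in the GFP pair, and 51.3 and 36.2 in untreated cells, and was lowest where SCARNA5 was 29.1 CPM. CWF19L1, the host of SNORA12, had 43.2 and 42.7 CPM in CRNN against 37.0 and 31.5 in GFP, higher without overlap like SNORA12. RPS3, the host of SNORD15B, had a log2 fold change of 0.05 for CRNN over GFP and KANSL2 had 0.03. SNHG3 and the SNORA73B within it were both highest in CRNN replicate 1.

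**Figure D5:**
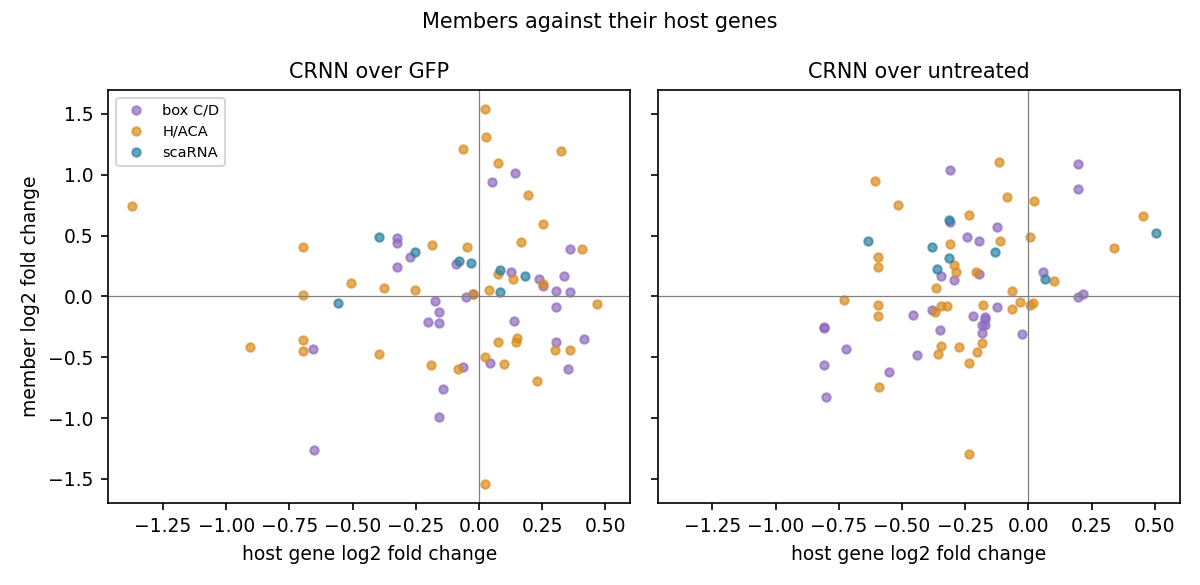
Log2 fold change of each tested member (vertical axis) against that of its host gene (horizontal axis) for CRNN over GFP and CRNN over untreated cells, coloured by class. Each point is 1 of 77 members. SNORA2B and SNORA2C, at -1.54 and 1.54 for CRNN over GFP, share the host KANSL2, which lies at 0.03.

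Proteins that bind and build these particles were listed beside the RNAs. No gene of any such list passed in any comparison (edgeR). The 4 core proteins of box C/D particles, FBL, NOP56, NOP58 and SNU13, had a median log2 fold change of -0.0017 for CRNN over GFP and -0.31 for CRNN over untreated cells. NOP58 had 65.2 and 52.1 CPM in CRNN, 47.9 and 83.1 in the GFP pair, and 120 and 85.2 in untreated cells (log2 fold change for CRNN over untreated -0.81, SE 0.34). The 4 core proteins of H/ACA particles had medians of 0.15 and -0.18, and DKC1, the pseudouridine synthase, had 60.3 and 75.6 CPM in CRNN, 50.01 and 76.9 in the GFP pair, and 132 and 65.0 in untreated cells. Assembly factors (12 tested) had medians of 0.10 and -0.16 and Cajal body proteins (10) of 0.01 and -0.10, with COIL, the scaffold of the body, at 21.6 and 23.8 CPM in CRNN, 13.6 and 23.6 in the GFP pair, and 22.5 and 24.5 in untreated cells.

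The 15 proteins of the U3 processome had a median of 0.09 for CRNN over GFP, and for CRNN over untreated cells a median of -0.41, with 0 of 15 positive (49.1% of all genes were) and 8 lower without overlap (18.4% of all genes). WDR43, which belongs to its early-binding part, had 86.9 and 98.2 CPM in CRNN, 69.2 and 95.7 in the GFP pair, and 231 and 113 in untreated cells. Untreated replicate 1 was the high library: against the other 5 its median was 0.56 for these proteins, 0.55 for the box C/D core and 0.40 for 18 noncoding host genes, and between -0.19 and -0.02 for the processome proteins in the other 5 libraries. U3 was at its lowest in that library, at 446 CPM. The noncoding hosts had a median of 0.03 for CRNN over GFP and -0.22 for CRNN over untreated cells.

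Of 31 other small structured RNAs listed, several, RMRP, RPPH1 and RN7SK among them, matched no counted row by identifier. The 14 that were tested included spliceosomal, Y and telomerase RNAs. Their median was 0.25 for CRNN over GFP (11 of 14 positive), 0.56 for CRNN over untreated (14 of 14) and 0.11 for GFP over untreated cells (8 of 14), and none passed. Of all genes tested, 49.9%, 49.1% and 48.9% were positive in that order. The 14 RNAs were measured in the same libraries, so these counts are not separate results. Library medians were 0.86 and 0.02 in CRNN, 0.27 and -0.41 in the GFP pair, and -0.54 and -0.08 in untreated cells, so CRNN replicate 1 stood highest here as well. RNU4-2, a U4 gene of the spliceosome, had 44.3 and 22.5 CPM in CRNN, 16.9 and 18.8 in the GFP pair, and 13.5 and 24.0 in untreated cells. TERC, the RNA of telomerase and itself an H/ACA RNA with a Cajal body box, had 115 and 86.2 CPM in CRNN, 143 and 55.8 in the GFP pair, and 83.5 and 78.1 in untreated cells, with the highest and the lowest library both in the GFP group, as for SCARNA7.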

How the data were processed

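Per the labels, total RNA from 6 Cal27 libraries was made into stranded libraries read in pairs. The deposited table holds counts, raw whole reads per gene without normalization, made by the authors. The submitters' processing notes list HTSeq 0.6.1, STAR 2.6, edgeR, bcl2fastq and FastQC 0.11.7, and the builds hg19, GRCh37 and GRCh38, all without their roles; the annotation and strand setting are not given in the sources used here. Symbols, lengths, hosts and sequences come from GENCODE 44 (GRCh38) by identifier, so printed coordinates are those of GENCODE and not of the counting; 51996 of 57820 rows had a symbol.

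Genes were kept by filterByExpr (minimum count 10, minimum total 15), which left 16396 genes with 99.9% of the counts. All 6 libraries were fitted together, without covariates, by edgeR 4.0.16 (R 4.3.3; TMM factors, quasi-likelihood F test, two-sided, Benjamini-Hochberg adjustment over all 16396 genes). A member rose or fell at an adjusted p under 0.05. CPM are counts over TMM-scaled library sizes. SE is the log2 fold change over the square root of F. Since 2 against 2 libraries cannot go below 0.33 in an exact permutation test, class sums were not tested. Intervals cover counting error only. The procedure was tested on simulated data. The outcome is not given here, so it does not show which fold changes 2 against 2 libraries could find.

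The members, lists and tests were chosen with earlier results of these data known. Named were the 5 most abundant members of each class, those with the smallest p or the largest changes without overlap in a comparison, RNAs with textbook roles, members at the edge of the rule, members apart in 1 library, their hosts, and list genes with the smallest p. Alternatives were RLE, upper-quartile or library-total scaling, limma-voom (limma 3.58.1), DESeq2 1.42.0, a minimum of 1 CPM in 2 libraries, no filter, a fit of the 2 groups alone, a replicate block, removal of GC and length trends (splines of 4 degrees of freedom), and each library left out. The sequences of SNORD15B, SCARNA7 and SCARNA10 are not reported here.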

Additional observations from a re-analysis of the deposited data

How the results depend on the processing

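No member passed at an adjusted p under 0.05 in any of the 3 comparisons under any of the 16 alternatives run for each (0 throughout). Of the 35 log2 fold changes printed for single genes, hosts and NOP58 included, none passed in 539 alternative fits (smallest adjusted p 0.156), and 17 of these fits gave the opposite sign. These concerned SNORD3A, SCARNA10, KANSL2 and RPS3 for CRNN over GFP and SNORD116-19 for CRNN over untreated cells. Besides leaving out a library, SCARNA10 turned to -0.07 with limma-voom and -0.14 with GC and length trends removed. Leaving out 1 library moved 14 of the 35 by over 1.5 times. For CRNN over GFP the ranges were -0.38 to 2.14 for SNORD3A, -1.58 to 1.27 for SCARNA10, -3.69 to -0.39 for SNORD39, -2.46 to -0.39 for SNORA2B, 0.56 to 3.30 for SNORA80B, 0.76 to 2.48 for SNORA54 and 0.56 to 1.65 for SNORA12. For CRNN over untreated cells they were 0.14 to 1.22 for SNORA12, 0.65 to 1.74 for SNORD116-18, 0.42 to 2.22 for SNORD126, -2.25 to -0.73 for SNORA2B and -1.80 to -0.17 for SNORA70. For GFP over untreated cells they were 0.02 to 1.03 for SNORD14E and -1.54 to -0.34 for SNORA37. The median log2 fold change of the members also depended on single libraries. With 1 library left out it ran from -0.43 (without CRNN replicate 1) to 0.41 (without GFP replicate 1) for CRNN over GFP, from -0.33 (without CRNN replicate 1) to 0.32 (without CRNN replicate 2) for CRNN over untreated, and from -0.40 (without GFP replicate 1) to 0.25 (without GFP replicate 2) for GFP over untreated cells. With GC and length trends removed the medians were -0.20, -0.20 and -0.01. Counts of members at an unadjusted p under 0.05 for CRNN over GFP were 5 of 87 in the reported fit (5.75%, against 4.39% of all genes), 10 of 87 with those trends removed (11.5% against 5.31%) and 16 of 98 without GFP replicate 1 (16.3% against 5.38%). Class sums moved by less than their replicate SD under RLE, upper-quartile and library-total scaling. For box C/D that SD is so wide that this is a weak check. The ranges under these scalings say more. Mean box C/D sums ran from 1901 to 1988 CPM in CRNN, 824 to 853 in GFP and 1259 to 1283 in untreated cells.

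The replicate number was not used as a pairing in the reported fit. Deviations of same-numbered libraries correlated at r = 0.25 (CRNN, GFP), -0.068 (CRNN, untreated) and 0.19 (GFP, untreated) over 11665 genes. Over the 87 tested members r was -0.38, -0.40 and 0.54 in that order. Such correlations cannot settle whether the libraries were paired. With the replicate number as a block, 0 members passed and the medians were 0.13, 0.05 and 0.01. Genes called over the whole table for CRNN over GFP were 3, against 21 by DESeq2, 34 without a filter, 13 with only the 2 groups fitted, 0 without either GFP library, and 13 and 15 without untreated replicates 1 and 2. For CRNN over untreated cells they were 1, against 7 by DESeq2, 152 without a filter and 957 without untreated replicate 2. For GFP over untreated cells they were 0, against 29 by DESeq2, 195 without a filter and 966 without untreated replicate 2. Depth limits the 65 members under 100 counts.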

Other observations

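Besides SCARNA10, SNORD17, SNORD3A and SNORD3C, 3 genes differed over 4-fold between the CRNN replicates among 11665 genes, and they are named here after their values were seen. RNU2-48P, annotated as a pseudogene of the U2 spliceosomal RNA, had 11.3 and 2.67 CPM in CRNN, 1.82 and 8.22 in the GFP pair, and 1.91 and 8.21 in untreated cells, so that its 3 high libraries were those of SCARNA10. NEAT1, the noncoding RNA of paraspeckles, had 767 and 144 CPM in CRNN, 1849 and 520 in the GFP pair, and 129 and 237 in untreated cells, with its highest library in GFP replicate 1. SPRR3, a small proline-rich protein of the cornified envelope, had 9.47 and 0.713 CPM in CRNN, 5.14 and 1.20 in the GFP pair, and 5.12 and 3.28 in untreated cells.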
